A study of Arabidopsis thaliana with 18 samples.

Results

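The 26S proteasome degrades proteins tagged with ubiquitin. The genes described here are 39 *Arabidopsis* genes that encode its subunits, out of 27444 nuclear coding genes, and were chosen by a list of locus identifiers and not by any measured value. A gene received every TIF-cluster that overlapped its Araport11 span on its own strand, whether or not the TIF-cluster covered the whole gene. TIF-clusters were listed for 38 of the 39 genes, and 32 of the 39 reached a mean of 20 read pairs per 1000000 read pairs of the list (RPM), as did 5573 of all coding genes.

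The study read transcript isoforms of Col-0 seedlings by TIF-seq, which joins the capped 5′ end (transcription start site, TSS) and the polyadenylated 3′ end (polyadenylation site, PAS) of the same RNA molecule in 1 read pair. Plants were sampled after 14 days at 22 °C by day, and the groups were the mutants *hen2-2*, *spt16-1* and *ssrp1-2* and the wild type at 22 °C, and *hen2-2* and the wild type after a further 3 h at 4 °C. HEN2 is an RNA helicase that guides RNA to the nuclear exosome, and SPT16 and SSRP1 are the subunits of the histone chaperone FACT. The authors merged the 2 libraries of each group before they built TIF-clusters, so each group is 1 list with no replicate error, and no difference between groups could be tested. Whole seedlings were used, so fewer cells that express a gene and less RNA per cell cannot be told apart.

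The 6 lists held 410655 to 924907 read pairs, with the fewest in *hen2-2* at 4 °C, and levels are given in RPM. A molecule gives 1 read pair whatever its length, so levels are not divided by gene length. Intervals are exact 95% intervals of counts. They cover counting error only and not the spread between plants. *HEN2* had no listed read pair in either *hen2-2* list, and 4 in wild type at 22 °C and 0 in wild type at 4 °C. *SSRP1* had 0 in *ssrp1-2* and 5 in wild type. *SPT16* had 31 read pairs in the list labelled *spt16-1* and 30 in wild type, so its level does not check that label, and *spt16-1* names a list by its label throughout. A TIF-cluster needed at least 3 read pairs and a TSS from TSS-seq to be listed, so a gene at 0 is called listed at 0. Whether that filter took away different TIF-clusters in different lists was not tested, and a low level in 1 list can be a TIF-cluster that is not listed there.

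Proteasome subunits fall into a core and a cap. In the 20S core, rings of alpha subunits (PAA to PAG) gate the entrance and rings of beta subunits (PBA to PBG) hold the proteolytic sites, which are those of PBA1, PBB and PBE. In the 19S cap, the RPT subunits are AAA-ATPases that unfold the substrate, and the RPN subunits form scaffolds, ubiquitin receptors and a lid with the deubiquitylase RPN11. Plants carry many subunits as pairs of paralogous genes, and a subunit pool can be made from either gene.

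The subunit genes together held 4809 RPM in *hen2-2*, 4292 in *spt16-1*, 4345 in *ssrp1-2* and 4403 in wild type at 22 °C, and 3721 in *hen2-2* and 3922 in wild type at 4 °C. The sum was lowest in the 2 lists at 4 °C. At 22 °C it was 1.09 times the wild type in *hen2-2* (interval 1.04 to 1.14), 0.975 times in *spt16-1* (0.932 to 1.02) and 0.987 times in *ssrp1-2* (0.940 to 1.04). At 4 °C against 22 °C it was 0.891 times in wild type (0.848 to 0.936) and 0.774 times in *hen2-2* (0.729 to 0.821). At 4 °C *hen2-2* had 0.949 times the sum of the wild type (0.890 to 1.01). The smallest TIF-cluster that could be listed stood for 7.31 RPM in *hen2-2* and 4.35 RPM in wild type at 4 °C. At 22 °C it stood for 3.78 RPM in *hen2-2* and 3.56 RPM in wild type. The intervals do not cover this limit, and its part in the lower sums at 4 °C was not tested.

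*RPT2a*, an ATPase gene, had the highest mean level of the 39 genes. Its levels were 482 RPM in *hen2-2*, 295 in *spt16-1*, 255 in *ssrp1-2* and 511 in wild type at 22 °C, and 402 in *hen2-2* and 371 in wild type at 4 °C. It was lowest in the lists of the 2 FACT mutants. *PAD1*, which encodes an alpha ring subunit, followed with 305, 333, 346 and 319 RPM in the same order at 22 °C, and 263 and 258 at 4 °C. The deubiquitylase gene *RPN11* ranged from 201 to 234 RPM over the 6 lists, the beta ring gene *PBF1* from 185 to 247 and the ATPase gene *RPT4b* from 173 to 275.

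**Figure D1:**
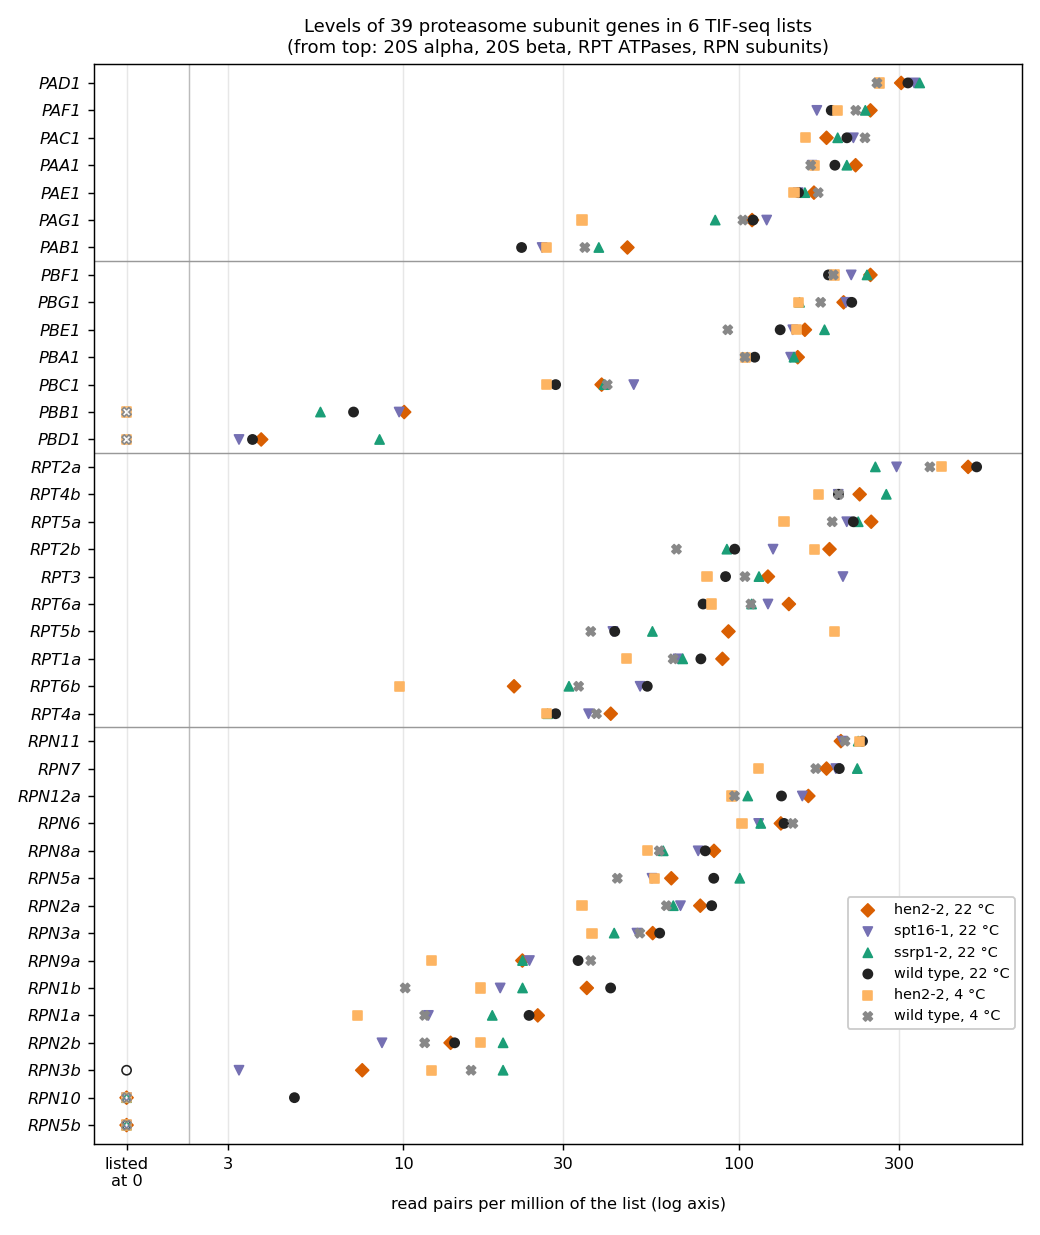
Level of each of the 39 genes (rows, grouped from the top as alpha, beta, RPT and RPN subunits) in RPM on a logarithmic axis, with 1 marker per list. Open markers at the left edge are genes listed at 0. *RPT2a* reached 511 RPM in wild type at 22 °C and *RPN5b* was listed at 0 in all 6 lists.

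At the other end, *RPN5b* was listed at 0 in all 6 lists. *RPN10*, which encodes a ubiquitin receptor, was listed in wild type at 22 °C only, with 4 read pairs in 1 TIF-cluster of 159 nt at its 3′ end. *PBD1* had 3 to 6 read pairs in each list at 22 °C and *PBB1*, a gene for a proteolytic subunit, had 4 to 9, and both were listed at 0 in *hen2-2* and wild type at 4 °C. *RPN3b* had 6 read pairs in *hen2-2*, 3 in *spt16-1*, 14 in *ssrp1-2* and 0 in wild type at 22 °C, and 5 in *hen2-2* and 11 in wild type at 4 °C. In these 5 genes a list held at most 14 read pairs, and no difference between lists is drawn from them.

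The groups of subunits differed in how evenly their genes were listed. The 7 alpha genes were listed in all 6 lists, with a summed level of 1280 RPM in *hen2-2*, 1186 in *spt16-1*, 1272 in *ssrp1-2* and 1194 in wild type at 22 °C, and 994 in *hen2-2* and 1193 in wild type at 4 °C. *PAB1* was the lowest of them in every list, at 22.5 to 46.6 RPM. The 7 beta genes summed to 604 to 812 RPM, and the 10 RPT genes to 1208 to 1654. The 15 RPN genes had the lowest median level of the 4 groups in each list, 34.1 to 58.1 RPM. The scaffold genes *RPN1a*, *RPN1b*, *RPN2a* and *RPN2b*, whose coding sequences of 2676 to 3015 nt are the longest of the 39, had mean levels of at most 64.3 RPM. Over the 38 listed genes, mean level and coding length had a rank correlation of -0.27. The genes share the 6 lists, and a loss of long molecules in library preparation was not tested.

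Proteasome promoters in plants are known for a short element with the core TGGGC, which is bound by the factors NAC53 and NAC78 when proteasome activity fails and which is also part of the site II element of TCP factors. TGGGC was searched on both strands, where the other strand reads GCCCA, in the 200 nt upstream of the most used full-length 5′ end of each gene. The forms can overlap, and each then counts as a match. Among the 35 members with at least 20 full-length read pairs over the 6 lists, 20 (57.1%) had a match and 18 (51.4%) had at least 2. Among all 9360 genes with as many read pairs, 28.9% had a match and 18.1% had at least 2. No factor was measured here, and a match is only a description of the sequence. A match was found in 6 of 10 members with a short TIF-cluster at the start (60%, below) and in 14 of 25 members without one (56%). The windows of 7 members with a match are shown, 5 of which also had short TIF-clusters, with *PAE1* and *RPN8a* as further examples. They are read 5′ to 3′ on the strand of the gene from the TAIR10.1 assembly, with the match nearest to the TSS in capitals.
*RPT2a*, chr4:14312229-14312258, plus strand: aatatttatataTGGGCcttagtcaaagat
*RPT2b*, chr2:8692641-8692670, plus strand: ctaaaataataaGCCCActttaatcatctc
*RPT5b*, chr1:2939328-2939357, minus strand: agctgtttcttcGCCCAaaagccaaactct
*PAD1*, chr3:19030962-19030991, plus strand: ttaaaacagagcTGGGCttttggcttgtcg
*PBE1*, chr1:4452221-4452250, plus strand: ttacagtttatgGCCCAtatttgtggtttg
*PAE1*, chr1:20106057-20106086, minus strand: aggcccatgaaaGCCCAttataaaaaacgc
*RPN8a*, chr5:1735671-1735700, plus strand: aacaaaagaaaaGCCCAttatagggaaata
The match began 54 nt upstream of the TSS in *RPT2a*, 63 nt in *RPT2b*, 61 nt in *RPT5b*, 42 nt in *PAD1*, 80 nt in *PBE1*, 64 nt in *PAE1* and 53 nt in *RPN8a*. *RPT5b* had 1 match and the other 6 genes had 2 to 4.

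The comparisons asked how the listed transcripts of the *hen2-2*, *spt16-1* and *ssrp1-2* mutants differed from those of the wild type, and those of seedlings in the cold from those at 22 °C. A fold is the ratio of levels after 5 RPM were added to both, and a gene counted as past the limit at 2-fold. Ratios given with an interval are of the listed levels with nothing added, so they can differ from the fold of the same comparison. Fold counts over all 5573 genes past the level filter give the background. Comparisons that share the wild-type list at 22 °C are not independent of each other.

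Few subunit genes passed 2-fold in any comparison. In *hen2-2* against wild type at 22 °C, *RPT5b* was higher and *RPT6b* lower, 1 of 32 members each, while 8.52% of all genes were higher and 6.08% lower. In *spt16-1*, *RPT3* was higher and no member was lower, against 8.68% and 5.9% of all genes. In *ssrp1-2* no member passed in either direction, against 9.04% higher and 8.9% lower of all genes. In wild type at 4 °C against 22 °C, no member was higher and *RPN1b* was lower, against 11.1% and 8.88%. In *hen2-2* at 4 °C against 22 °C, *RPT5b* was higher and *PAG1* and *RPN2a* were lower, against 8.27% and 15.3%. In *hen2-2* against wild type at 4 °C, *RPT5b* and *RPT2b* were higher and *PAG1*, *RPT6b* and *RPN9a* were lower, against 7.52% and 15.0%. The members' shares lay below the background in all 12 of these counts. The background was not matched to the members for level, and the lower shares are not read as a trait of these genes. The median log2 fold of members ranged from -0.48 to 0.16 over the 6 comparisons, beside -0.18 to 0.07 for all genes. The largest difference between these medians was in *hen2-2* at 4 °C against 22 °C. There, 30 of 32 members and 3368 of all 5573 genes had a log2 fold below 0. The median was -0.48 for members and -0.18 for all genes. The smallest TIF-cluster that could be listed stood for 7.31 RPM in *hen2-2* at 4 °C and 3.78 RPM in *hen2-2* at 22 °C. How far this limit lowered the members' levels at 4 °C was not tested.

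**Figure D2:**
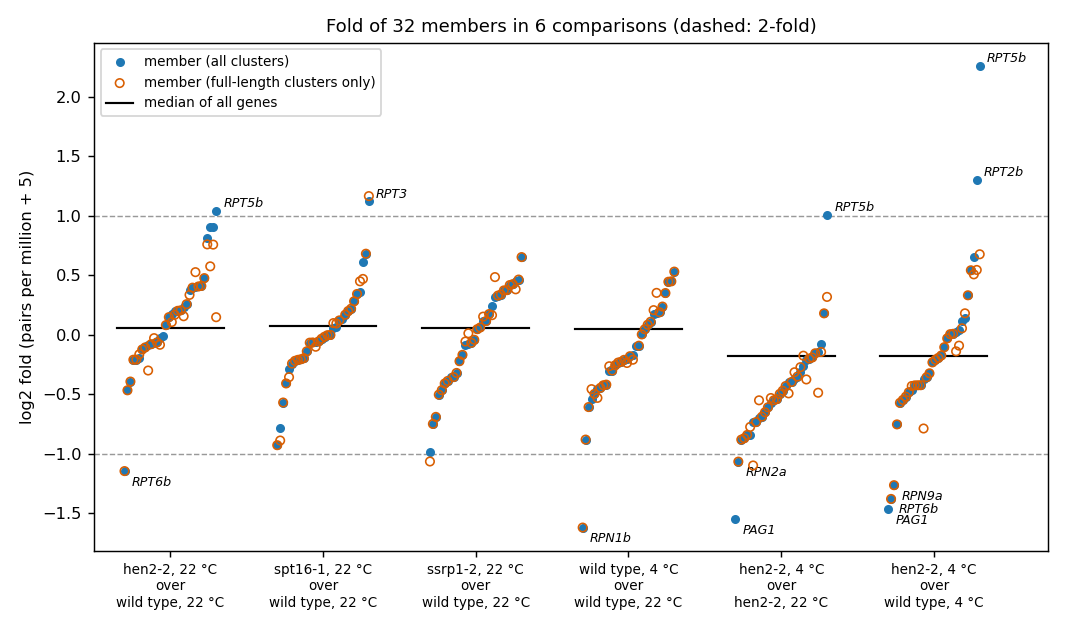
Log2 fold of the 32 members past the level filter in each of the 6 comparisons, from all TIF-clusters (filled) and from full-length TIF-clusters only (open), with the median of all genes as a line and 2-fold dashed. *RPT5b* in *hen2-2* reached 2.26 at 4 °C from all TIF-clusters and 0.68 from full-length ones.

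*RPT5b* (AT1G09100, chr1:2936528-2939363, minus strand) had the highest fold of any member, and short RNAs at its start made up most of the difference from the wild type. The gene encodes 1 of the paralogous RPT5 ATPases. It had 74 read pairs in *hen2-2*, 39 in *spt16-1*, 39 in *ssrp1-2* and 36 in wild type at 22 °C, and 79 in *hen2-2* and 25 in wild type at 4 °C. Only the 2 *hen2-2* lists stood above the others. In RPM, *hen2-2* had 2.18 times the wild type at 22 °C (interval 1.45 to 3.35) and 5.31 times at 4 °C (3.35 to 8.69). At 4 °C *hen2-2* had 2.06 times its own level at 22 °C (1.48 to 2.87), and 1.27 times from full-length TIF-clusters (0.736 to 2.16). With median-of-ratios scaling, *RPT5b* did not pass 2-fold in *hen2-2* against wild type at 22 °C. Of these read pairs, 36 in *hen2-2* at 22 °C and 54 in *hen2-2* at 4 °C lay in TIF-clusters of 62 to 112 nt, and no other list had any. Full-length read pairs of *RPT5b*, those in TIF-clusters that span the coding sequence, numbered 38 in *hen2-2* and 36 in wild type at 22 °C, a ratio in RPM of 1.12 (0.691 to 1.82), and 25 in *hen2-2* and 25 in wild type at 4 °C, a ratio of 1.68 (0.926 to 3.05). Short RNAs were 48.6% of the short and full-length read pairs of *hen2-2* at 22 °C (36.9 to 60.6%) and 68.4% at 4 °C (56.9 to 78.4%). In wild type the share was 0 of 36 at 22 °C, with an upper bound of 9.74%, and 0 of 25 at 4 °C, with an upper bound of 13.7%.

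Capped and polyadenylated RNAs that end soon after the TSS are called short promoter-proximal RNAs (sppRNAs) in the study. *RPT2b* (AT2G20140, chr2:8692567-8695111, plus strand) had 38 read pairs in 2 TIF-clusters under 350 nt in *hen2-2* and 5 in 1 such TIF-cluster in wild type at 22 °C, and 29 in 3 in *hen2-2* and 0 in wild type at 4 °C. The FACT mutant lists had none. They were 25.7% of the short and full-length read pairs in *hen2-2* (18.9 to 33.5%) and 6.10% in wild type at 22 °C (2.01 to 13.7%), and 42.0% in *hen2-2* at 4 °C (30.2 to 54.5%) and 0 of 45 in wild type (upper bound 7.87%). Full-length *RPT2b* was also above the wild type in *hen2-2* at 22 °C, with 110 read pairs against 77 in wild type, a ratio in RPM of 1.52 (1.12 to 2.06). At 4 °C it had 40 read pairs in *hen2-2* and 45 in wild type, a ratio of 1.49 (0.951 to 2.34). From all TIF-clusters *RPT2b* had 69 read pairs in *hen2-2* and 45 in wild type at 4 °C, a ratio of 2.58 (1.74 to 3.84).

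The paralogue *RPT2a* (AT4G29040, chr4:14312283-14314600, plus strand) had 35 short read pairs in *hen2-2*, in 3 TIF-clusters of 88 to 104 nt, and 4 in 1 TIF-cluster of 56 nt in wild type at 22 °C. At 4 °C it had 3 in *hen2-2* and 0 in wild type. Its 2 largest short TIF-clusters, with 18 and 12 read pairs, began 46 and 44 nt downstream of the most used full-length 5′ end. *RPT2a* was not higher in *hen2-2* at 22 °C, with 383 read pairs against 431 in wild type (0.943 times in RPM, 0.820 to 1.08).

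**Figure D3:**
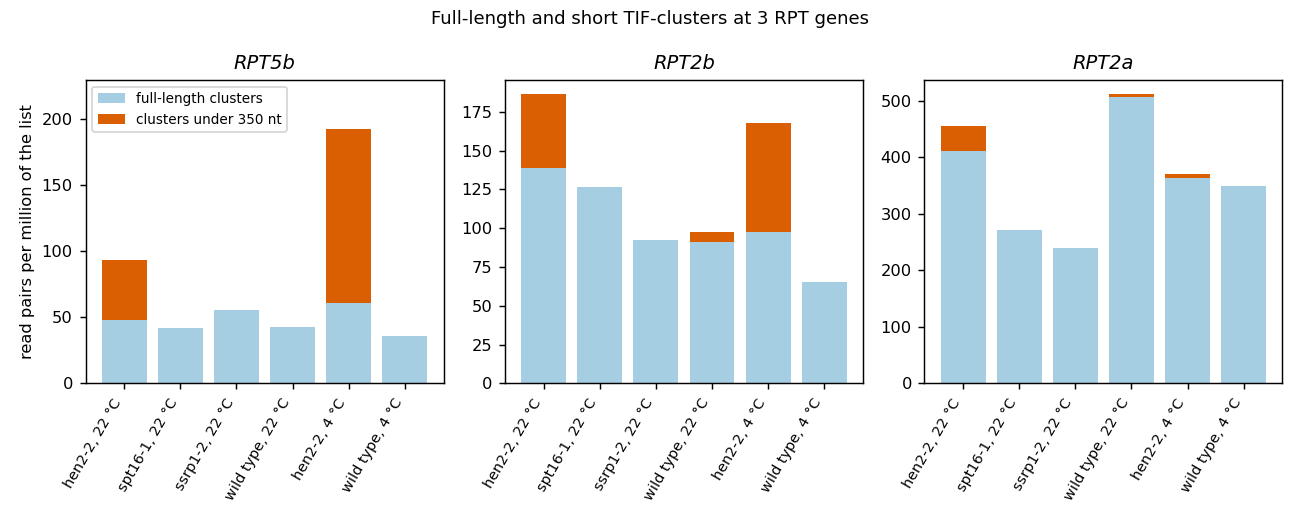
Level in RPM in full-length TIF-clusters (pale) and in TIF-clusters under 350 nt away from the 3′ end (dark) at *RPT5b*, *RPT2b* and *RPT2a*, with 1 bar per list and an axis of its own per gene. Short read pairs made up 68.4% of the bar of *RPT5b* in *hen2-2* at 4 °C, and *spt16-1* and *ssrp1-2* had none.

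Outside the RPT2 and RPT5 genes, sppRNAs of members were few. *PAD1* had 12 short read pairs in *hen2-2* at 4 °C and 0 in the other 5 lists. *PBE1*, the gene of a proteolytic subunit, had 7 in *hen2-2* at 22 °C and 6 in *hen2-2* at 4 °C, and the alpha ring gene *PAA1* had 4 and 6 in the same lists. *PAB1* and the lid gene *RPN6* had 4 each in *hen2-2* at 22 °C, and *RPT6a* had 3 in *hen2-2* at 4 °C. None of these 6 genes had such a TIF-cluster in a wild-type or FACT mutant list.

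In all, members held 13 TIF-clusters under 350 nt with 136 read pairs in *hen2-2*, 1 with 7 in *spt16-1*, 1 with 4 in *ssrp1-2* and 6 with 22 in wild type at 22 °C, and 12 with 113 in *hen2-2* and 0 in wild type at 4 °C. Such a TIF-cluster was placed at the start by the most used full-length 5′ end of the gene. Any part of it had to overlap that end or the 40 nt on either side. It is called an sppRNA TIF-cluster below. The study's rule differs: it took annotated TSSs with 40 nt on either side and allowed no overlap with a termination site. The study names TAIR10 for its gene annotation, whereas Araport11 spans were used here. By this rule, 10 of the 13 in *hen2-2* at 22 °C were at the start, in 7 genes, and 12 of 12 in *hen2-2* at 4 °C, in 7 genes. The 7 of 32 members in each list compare with 19.2% of all 5573 genes in *hen2-2* at 22 °C and 17.9% at 4 °C, so the share of subunit genes with an sppRNA was close to that of all genes. By the same rule *RPT2b* and *RPT3* counted in wild type at 22 °C, against 3.5% of all genes. The TIF-cluster of *RPT3*, with 3 read pairs and 231 nt, began 77 nt upstream of the most used 5′ end and overlapped the window with its body. No member counted in *spt16-1*, *ssrp1-2* or wild type at 4 °C, against 2.37%, 1.29% and 1.27%. The same overlap with the annotated start is nearer to the study's rule. By it, only *RPT2a* counted in each *hen2-2* list, against 4.38% of all genes at 22 °C and 4.02% at 4 °C. *RPT3* counted in wild type at 22 °C, against 0.682%. No member counted by it in *spt16-1* (0.484% of all genes), *ssrp1-2* (0.305%) or wild type at 4 °C (0.233%).

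The 22 sppRNA TIF-clusters of both *hen2-2* lists were 62 to 198 nt long, with a median of 88.5 nt. Their 3′ ends lay inside coding sequence in 17 of them, in an annotated UTR in 3 and outside the annotated exons in 2. The 22 came from only 9 genes, and a gene counts once for each TIF-cluster and list. The coding ends were those of *RPT5b* and *RPT2b*, which held most of them, and of *RPT2a*, *PAA1* and *PAD1*. The ends of *PAB1*, *RPN6*, *RPT6a* and *PBE1* were not in coding sequence. The ends at the genes with the most short read pairs are shown with the last 20 bases of the short RNA in capitals and the 10 bases that follow in lower case, from TAIR10.1 on the strand of the gene, to let the places of termination be compared. The *RPT2a* TIF-cluster shown is its largest short one. It began among the full-length 5′ ends of the gene but outside the window of the rule above, and is not among the 22.
*RPT5b* in *hen2-2* at 4 °C, 25 read pairs, chr1:2939190-2939219: GACCAACTAGCTTCCATGACtactgatgac
*RPT5b* in *hen2-2* at 22 °C, 23 read pairs, chr1:2939187-2939216: CAACTAGCTTCCATGACTACtgatgacatc
*RPT2b* in *hen2-2* at 22 °C, 22 read pairs, chr2:8692804-8692833: GGAGAAGAAGTTCGAACCAGccgcaccacc
*RPT2a* in *hen2-2* at 22 °C, 18 read pairs, chr4:14312425-14312454: TGGAGATAAGAAAGAGAAGAagtttgagcc
*PAD1* in *hen2-2* at 4 °C, 12 read pairs, chr3:19031070-19031099: CAGAAAAAGGTAAAAGATGGcgagatacga
*PBE1* in *hen2-2* at 22 °C, 7 read pairs, chr1:4452376-4452405: TTTCCGATCCTTAATCGAGCtctagtatca
The most used ends of *RPT5b* at the 2 temperatures lay 58 nt (4 °C) and 61 nt (22 °C) downstream of the first base of the start codon. That of *RPT2b* lay 87 nt downstream of it. The *RPT2a* TIF-cluster shown ended 75 nt downstream of it, and the *RPT2a* TIF-cluster at the start in *hen2-2* at 22 °C, with 5 read pairs, ended 34 nt downstream of it. The sppRNA of *PAD1* ended 3 nt after it, so that it held the start codon and 1 more base. The sppRNA of *PBE1* ended 246 nt before its start codon and 25 nt past the end of an annotated exon.

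The TIF-clusters under 350 nt in the other lists lay mostly at 3′ ends. *RPT3* had 7 read pairs in 1 such TIF-cluster in *spt16-1* and 6 in 2 in wild type at 22 °C, all at its 3′ end, and 3 read pairs at its start in wild type. *PAG1* had 8 in *hen2-2* and 4 in *ssrp1-2* at its 3′ end.

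Most read pairs at the subunit genes came from full-length TIF-clusters: 93.2% in *hen2-2*, 95.7% in *spt16-1*, 97.4% in *ssrp1-2* and 96.6% in wild type at 22 °C, and 90.4% in *hen2-2* and 96.6% in wild type at 4 °C. Over all genes past the level filter these shares were 86.1, 87.9, 89.5 and 85.2% at 22 °C, and 82.8 and 88.5% at 4 °C, in the same order of lists. Members with a full-length TIF-cluster had on average 6.97 of them in *hen2-2*, 7 in *spt16-1*, 6.67 in *ssrp1-2* and 6.83 in wild type at 22 °C, and 4.53 in *hen2-2* and 6.32 in wild type at 4 °C. For all genes past the filter the averages were 3.69 in *hen2-2* at 4 °C and up to 5.78, in *spt16-1*. The lowest average was in the smallest list, and the count of isoforms moves with the number of read pairs.

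*PAF1* and *PAD1*, which encode alpha ring subunits, had the most isoforms, 13 to 20 and 12 to 20 full-length TIF-clusters per list. *RPT2a* had 8 to 17, *RPN11* 10 to 14 and *PBF1* 8 to 14. The 5′ ends of the full-length TIF-clusters of *PAF1* spread over 94 nt and its 3′ ends over 150 nt, and in *PAD1* over 79 and 263 nt. These isoforms hold the coding sequence by definition, and they differed in their ends within these ranges. By contrast, *RPT5b* had 2 or 3 full-length isoforms per list and *RPT6b* 1 to 4.

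*PAG1* (AT2G27020, chr2:11528230-11531178, minus strand), the gene of another alpha ring subunit, had no TIF-cluster that spanned the coding sequence over both of its annotated models. In 1 model the start codon lies 14 nt downstream of the annotated start, and in the other 320 nt downstream. The TIF-clusters of *PAG1* that spanned the shorter coding sequence, 3 to 11 per list, began 205 to 310 nt downstream of the annotated start, between the start codons of the 2 models. *PAG1* had 87 read pairs in *hen2-2*, 112 in *spt16-1*, 60 in *ssrp1-2* and 93 in wild type at 22 °C, and 14 in *hen2-2* and 71 in wild type at 4 °C. The list of *hen2-2* at 4 °C stood below the other 5. Its level was 0.331 times that of wild type at 4 °C (0.172 to 0.593) and 0.311 times that of *hen2-2* at 22 °C (0.163 to 0.551).

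Where both genes of a paralogous pair are members, 1 gene usually supplied most full-length read pairs. The coding sequences of the 8 pairs were 80.3 to 94.4% identical, and only unique alignments had been kept, so read pairs of near-identical stretches could be lost from either gene. *RPT4a* supplied 15.3% of the RPT4 read pairs in *hen2-2* (10.8 to 20.9%), 15.3% in *spt16-1* (10.8 to 20.8%), 8.92% in *ssrp1-2* (5.46 to 13.6%) and 12.6% in wild type at 22 °C (8.22 to 18.1%), and 13.4% in *hen2-2* (6.89 to 22.7%) and 16.0% in wild type at 4 °C (10.7 to 22.5%). All 6 intervals overlapped. *RPT5a* supplied 80.4 to 83.7% in 5 lists and 69.1% in *hen2-2* at 4 °C (57.9 to 78.9%), against 83.7% in wild type at 4 °C (76.8 to 89.1%). *RPN5a* supplied 100% in each list, since *RPN5b* was listed at 0.

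Of the RPT2 read pairs, *RPT2a* supplied 74.8% in *hen2-2* (70.4 to 78.8%), 68.2% in *spt16-1* (63.2 to 72.9%) and 72.2% in *ssrp1-2* (66.0 to 77.9%), against 84.7% in wild type (81.3 to 87.8%), all at 22 °C. At 4 °C it supplied 78.8% in *hen2-2* (72.3 to 84.4%) and 84.3% in wild type (79.5 to 88.3%). The intervals of the 3 mutants at 22 °C did not reach that of the wild type. Full-length *RPT2a* had 326 read pairs in *hen2-2*, 251 in *spt16-1*, 169 in *ssrp1-2* and 427 in wild type, which is 0.810 times the wild type in RPM in *hen2-2* (0.699 to 0.938), 0.536 times in *spt16-1* (0.457 to 0.628) and 0.473 times in *ssrp1-2* (0.394 to 0.567). A single TIF-cluster of 80 read pairs with a PAS at -11 nt from the annotated end was listed in wild type at 22 °C and in no other list. Without it, the wild type had 347 read pairs and a share of 81.8% (77.8 to 85.4%), and the ratios were 0.997 in *hen2-2* (0.855 to 1.16), 0.659 in *spt16-1* (0.558 to 0.778) and 0.582 in *ssrp1-2* (0.482 to 0.702). The interval of the wild-type share then overlapped those of *hen2-2* and *ssrp1-2* but not that of *spt16-1*.

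*RPT6a* and *RPT6b* (AT5G19990 and AT5G20000) stand next to each other on the plus strand of chromosome 5, and their coding sequences are 94.4% identical. *RPT6a* supplied 86.4% of their read pairs in *hen2-2* (79.1 to 91.9%), 68.5% in *spt16-1* (60.3 to 75.8%) and 76.8% in *ssrp1-2* (67.1 to 84.9%), against 59.5% in wild type at 22 °C (49.7 to 68.7%). At 4 °C it supplied 86.2% in *hen2-2* (68.3 to 96.1%) and 76.5% in wild type (66.9 to 84.5%). The difference between *hen2-2* and wild type at 22 °C held both genes: *RPT6a* had 108 full-length read pairs in *hen2-2* and 66 in wild type (1.74 times in RPM, 1.27 to 2.40), and *RPT6b* had 17 and 45 (0.401 times, 0.215 to 0.714). *RPT6b* had 4 read pairs in *hen2-2* and 23 in wild type at 4 °C (0.292 times, 0.0735 to 0.855).

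**Figure D4:**
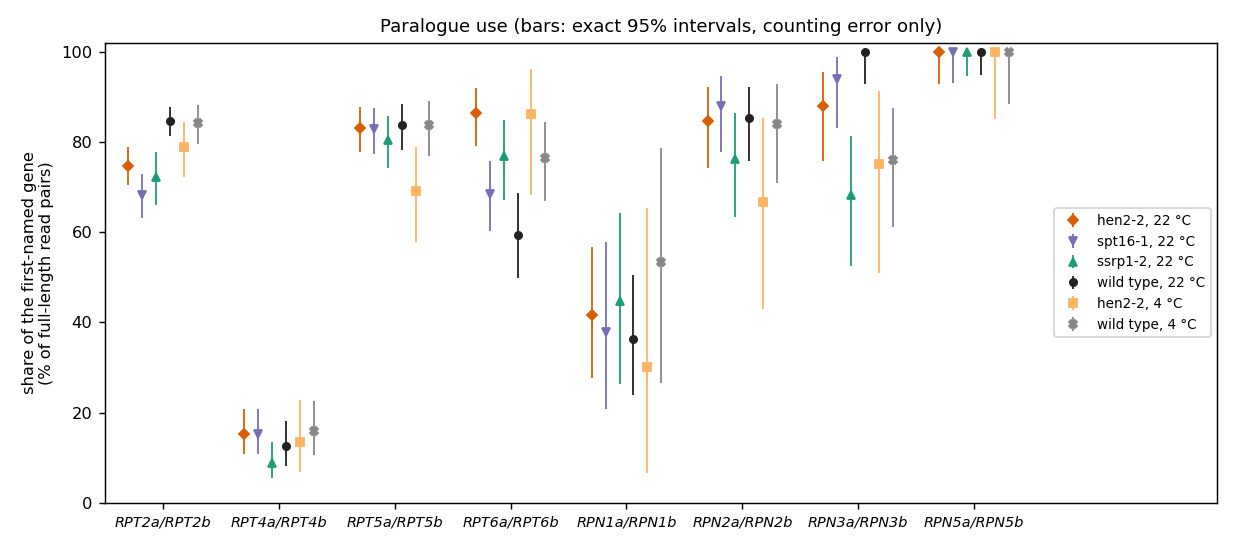
Share of the first-named gene among the full-length read pairs of each of 8 pairs of paralogous members, by list, with exact 95% intervals that cover counting error only. *RPT6a* supplied 86.4% in *hen2-2* and 59.5% in wild type at 22 °C, and *RPT4a* supplied at most 15.3% in each list at 22 °C.

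The RPN pairs had fewer read pairs and wide intervals. *RPN2a* supplied 66.7 to 88.1% of its pair and *RPN1a* 30 to 53.3%. *RPN3a* supplied 88.0% in *hen2-2* (75.7 to 95.5%), 93.9% in *spt16-1* (83.1 to 98.7%), 68.2% in *ssrp1-2* (52.4 to 81.4%) and 49 of 49 in wild type at 22 °C (from 92.7%). At 4 °C it supplied 75.0% in *hen2-2* (50.9 to 91.3%) and 76.1% in wild type (61.2 to 87.4%). *RPN1b* had 7 read pairs in wild type at 4 °C and 35 at 22 °C (0.244 times in RPM, 0.0916 to 0.558). *RPN2a* had 14 in *hen2-2* at 4 °C and 61 at 22 °C (0.444 times, 0.229 to 0.803), a difference that was not past 2-fold with median-of-ratios scaling or with TIF-clusters of at least 5 read pairs. *RPN9a* had 5 in *hen2-2* and 25 in wild type at 4 °C (0.336 times, 0.100 to 0.894).

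Members also have partner paralogues outside the 39 genes. *PAC1*, *PAD1*, *RPT1a* and *RPN12a* supplied all full-length read pairs of their pairs in each list, since *PAC2*, *PAD2*, *RPT1b* and *RPN12b* were listed at 0 throughout. For PBD the partner dominated: *PBD1* supplied 3 of 61 full-length read pairs in *hen2-2*, 3 of 68 in *spt16-1*, 6 of 65 in *ssrp1-2* and 3 of 55 in wild type at 22 °C, and 0 of 20 in *hen2-2* and 0 of 32 in wild type at 4 °C. With both genes summed, the pools of PBD and PBC had means of 67.1 and 68.1 RPM over the 6 lists. The other beta pools were not close to these, with means of 22.1 (PBB), 127 (PBA), 158 (PBE), 185 (PBG) and 212 RPM (PBF). *PAA2*, the partner of *PAA1*, had 41 read pairs in *hen2-2*, 67 in *spt16-1*, 49 in *ssrp1-2* and 7 in wild type at 22 °C, and 3 in *hen2-2* and 46 in wild type at 4 °C. These are listed read pairs, and the part of the TSS-seq filter in the low counts was not tested. *PAF2* had 8 read pairs in *hen2-2* and 34 in wild type at 4 °C. The lid gene *DSS1(V)* had 29 in wild type at 4 °C and 94 at 22 °C. *RPN13*, *DSS1(I)* and *DSS1(V)* have no paralogue among the 39 genes. Together with the partner paralogues they made 17 further subunit genes, of which 8 passed the level filter.

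In the PAA, PAF, PBE, RPN9 and RPN8 pairs the intervals of some lists did not overlap. *PAA1* supplied 95.9% of its pair in wild type (91.7 to 98.3%) and 69.5% in *spt16-1* (63.0 to 75.6%), both at 22 °C. *PAF1* supplied 95.3% of its pair in *hen2-2* at 4 °C (88.4 to 98.7%) and 80.2% in *hen2-2* at 22 °C (74.5 to 85.0%). *RPN9a* supplied 46.2% of the full-length read pairs of *RPN9a* and *RPN9b* in *hen2-2* (30.1 to 62.8%), 57.9% in *spt16-1* (40.8 to 73.7%) and 59.3% in *ssrp1-2* (38.8 to 77.6%), against 84.8% in wild type at 22 °C (68.1 to 94.9%). *RPN9b* had 21 read pairs in *hen2-2* and 5 in wild type at 22 °C, and *RPN9a* 18 and 28. At 4 °C *RPN9a* supplied 5 of 5 in *hen2-2* and 25 of 29 in wild type. *RPN8a* supplied 62.5% of its pair with *RPN8b* in wild type at 4 °C (49.5 to 74.3%), against 91.8% in wild type at 22 °C (83.0 to 96.9%), and 76.4 to 88.0% in the other 4 lists. *PAE1* supplied 65.3 to 80% of its pair with *PAE2* and *PAB1* 49.1 to 66.7% of its pair with *PAB2*. *PBE1* supplied 82.5 to 100% of its pair with *PBE2*, which was listed at 0 in *hen2-2* at 4 °C. The share of *PBE1* was 100% in that list (from 93.5%) and 83.6% in wild type at 22 °C (76.2 to 89.4%). The PBB pair had 8 to 24 full-length read pairs per list, of which *PBB1* supplied 0 to 9. *PBC2* had 9 to 30 read pairs per list and none in a full-length TIF-cluster. Its coding sequence over both annotated models begins at the annotated start of the gene. A TIF-cluster that begins downstream of that start therefore cannot count as full-length, and the 0 does not show that its RNAs were truncated.

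Median 5′ and 3′ ends of members moved little. The median end, weighted by read pairs, was compared where both lists had at least 20 full-length read pairs, which held for 29 members in *hen2-2*, 29 in *spt16-1* and 27 in *ssrp1-2* against wild type at 22 °C, for 29 in wild type and 22 in *hen2-2* at 4 °C against 22 °C, and for 22 in *hen2-2* against wild type at 4 °C. No member moved by 50 nt at either end. Over all genes the 5′ end moved that far in 1.46% (*hen2-2*), 1.4% (*spt16-1*) and 1.66% (*ssrp1-2*) of genes against wild type at 22 °C, in 1.38% (wild type) and 0.937% (*hen2-2*) at 4 °C against 22 °C, and in 0.91% in *hen2-2* against wild type at 4 °C. The shares for the 3′ end were 4.54, 3.68, 4.33, 4.62, 4.9 and 4.67% in the same order. Read against these shares, a count of 0 among 22 to 29 genes is close to the background. The median absolute shift of members was 2 to 9 nt at the 5′ end and 3 to 8 nt at the 3′ end over the 6 comparisons. With positive values downstream, the 5 genes with the largest 3′ shifts were *RPT6b* (-46 nt in wild type at 4 °C against 22 °C), *RPT5a* (36 nt in *hen2-2* at 4 °C against 22 °C), *RPT4b* (-31 nt in the same comparison), *RPN12a* (30 nt in *spt16-1*) and *RPT6a* (26 nt in *hen2-2* at 22 °C).

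The median hid a choice between separate start zones in *RPT4a* (AT5G43010, chr5:17248290-17251200, minus strand). Ends within 20 nt of each other over the 6 lists were joined into zones, and the 5′ ends of *RPT4a* formed an upstream zone, 20 to 35 nt downstream of the annotated start, and a downstream zone at 61 to 72 nt. The upstream zone held 26 of 33 full-length read pairs in *hen2-2* (61.1 to 91.0%), 0 of 33 in *spt16-1* (upper bound 10.6%) and 24 of 24 in wild type at 22 °C (from 85.8%). In wild type at 4 °C it held 0 of 26 (upper bound 13.2%). *RPT4a* had under 20 full-length read pairs in *ssrp1-2* and in *hen2-2* at 4 °C, and no share is given for them. Wild type at the 2 temperatures thus shared no start zone, and neither did *spt16-1* and wild type at 22 °C. TIF-clusters were filtered on TSSs from TSS-seq, and the part of that filter in this difference was not tested. The sequence around the most used start of each zone is shown, on the minus strand of TAIR10.1, with the last base before the start and the first base of the RNA in capitals.
*RPT4a* upstream zone, chr5:17251150-17251179: cggaaagcaatctGTattttagtccaattt
*RPT4a* downstream zone, chr5:17251115-17251144: gagaaagactaaaCCcattgctcaagaaaa

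*RPT5b* had similar zones, at 37 to 40 nt and 78 to 82 nt downstream of its annotated start. The upstream one held 16 of 25 full-length read pairs in *hen2-2* at 4 °C (42.5 to 82.0%) and 5 of 25 in wild type at 4 °C (6.83 to 40.7%), and 0 of 38 in *hen2-2*, 5 of 39 in *spt16-1*, 0 of 39 in *ssrp1-2* and 5 of 36 in wild type at 22 °C. The sppRNAs of *RPT5b* began 75 to 80 nt downstream of the annotated start in *hen2-2* at 4 °C, except for 3 of the 54 read pairs, and 81 nt downstream in *hen2-2* at 22 °C, at or next to the downstream zone. In *RPT1a*, an upstream zone at 40 to 47 nt held 23 of 71 read pairs in *hen2-2* and 9 of 65 in wild type at 22 °C.

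**Figure D5:**
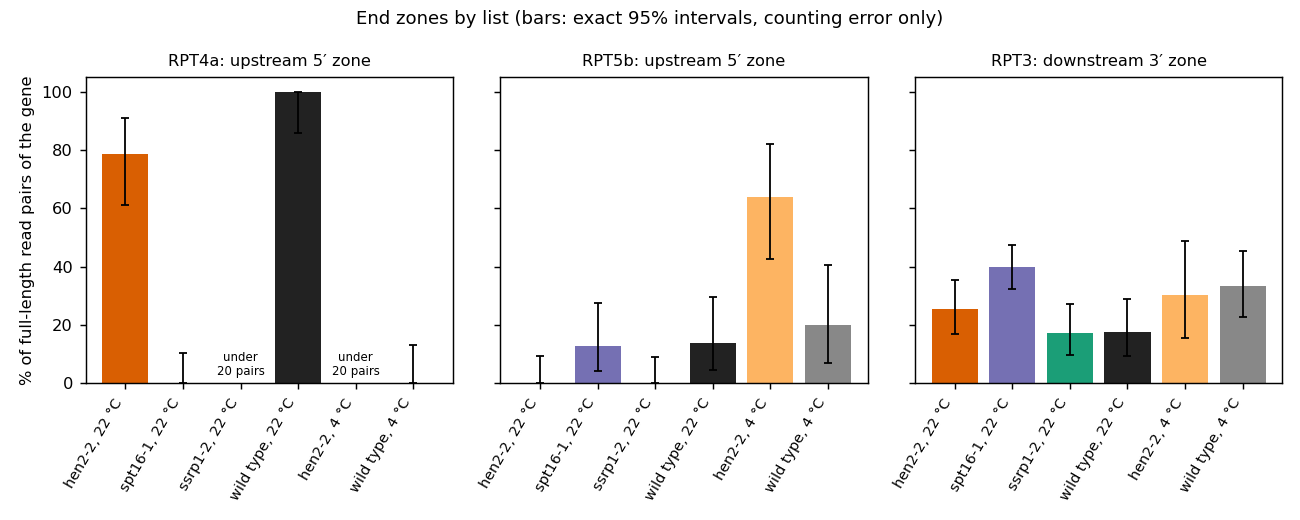
Share of the full-length read pairs of a gene in 1 end zone, for the upstream 5′ zone of *RPT4a*, the upstream 5′ zone of *RPT5b* and the downstream 3′ zone of *RPT3*, by list, with exact 95% intervals that cover counting error only. Lists with under 20 full-length read pairs have no bar. The upstream zone of *RPT4a* held 24 of 24 read pairs in wild type at 22 °C and 0 of 26 at 4 °C.

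*RPT3* (AT5G58290, chr5:23569052-23571854, plus strand), the only member past 2-fold in *spt16-1*, had 189 read pairs in the list labelled *spt16-1* and 77 in wild type (2.24 times in RPM, 1.71 to 2.96). Of these, 173 and 68 were full-length (2.32 times, 1.74 to 3.12). In *spt16-1*, 9 of the 189 lay in 2 TIF-clusters that also overlapped another gene. The gene used 2 zones of PASs, from -644 to -566 nt and from -542 to -507 nt relative to its annotated end. The downstream zone held 69 of 173 full-length read pairs in *spt16-1* (32.5 to 47.6%), 24 of 94 in *hen2-2* (17.1 to 35.6%) and 14 of 81 in *ssrp1-2* (9.78 to 27.3%), against 12 of 68 in wild type at 22 °C (9.46 to 28.8%). It held 10 of 33 in *hen2-2* and 24 of 72 in wild type at 4 °C. The upstream zone had 104 read pairs in *spt16-1* and 56 in wild type, and the downstream zone 69 and 12.

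Over the 6 lists, the median 3′ end of every member with full-length TIF-clusters lay upstream of the outermost annotated end, at -1227 nt in *RPN7*, -589 nt in *RPT3*, -370 nt in *RPT1a*, -256 nt in *RPN8a* and -239 nt in *RPT6a*. The median 5′ end of *RPN5a* lay 454 nt downstream of the annotated start. Full-length TIF-clusters reach at least to the stop codon by definition. Their most used 3′ end lay 222 nt past it in *RPN7*, 149 nt in *RPT3* and 155 nt in *RPT1a*.

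TIF-clusters of at least 350 nt that did not span the coding sequence of any model were few, 9 in *hen2-2*, 9 in *spt16-1*, 4 in *ssrp1-2* and 3 in wild type at 22 °C, and 5 in *hen2-2* and 4 in wild type at 4 °C. *RPT2a* had 3 such TIF-clusters with 22 read pairs in *hen2-2*, 4 with 22 in *spt16-1*, 2 with 11 in *ssrp1-2* and none in wild type at 22 °C, and 3 with 13 in *hen2-2* and 3 with 15 in wild type at 4 °C. They began 90 to 313 nt downstream of the annotated start and ended at its usual PASs. *RPT6a* had 1 or 2 TIF-clusters that began 2826 to 2829 nt downstream of its start, with 4 read pairs in *hen2-2*, 11 in *spt16-1* and 4 in *ssrp1-2* and 0 in wild type at 22 °C, and 6 in *hen2-2* and 0 in wild type at 4 °C. *RPT5a* had 9 read pairs from a start at 672 nt in *hen2-2* and 5 from one at 667 nt in *spt16-1*. At *RPT3*, 1 TIF-cluster of *hen2-2* and 2 of *spt16-1* began beyond its PASs and ended 3214 to 3216 nt past its annotated end. Each of them also overlapped another gene on the same strand.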

How the data were processed

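TIF-seq data comprised 6 lists that pool 12 libraries, 2 per list. The 6 TSS-seq samples were not analysed here. Each TIF-cluster carries a deposited count of read pairs, which the authors did not normalize. They trimmed reads with cutadapt, aligned them to TAIR10 with STAR 2.6.1c (version from the submitters' processing notes), kept unique alignments, removed PCR copies by molecular identifiers with UMI-tools, merged the libraries of a group, and merged read pairs whose ends matched within 20 nt. TIF-clusters under 3 read pairs, at genomic A-rich stretches or lacking a TSS from TSS-seq had been removed.

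Gene models came from RefSeq's TAIR10.1 annotation (TAIR and Araport), for nuclear genes. Counts were scaled to RPM, read pairs per 1000000 of the list. Log2 folds used a pseudocount of 5 RPM, for genes with a mean of at least 20 RPM. Full-length TIF-clusters span the coding sequence over all isoforms. Intervals are exact Clopper-Pearson intervals at 95%, and for ratios the exact conditional interval of 2 counts. No test between groups was possible with 1 pooled list per group.

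The members and the lists of further genes were chosen with earlier results of these data known. Genes named are the 5 highest and 5 lowest by mean level, those past 2-fold, all paralogous pairs, the 5 with the most full-length isoforms, the 5 with the largest 3′ shift, and those with a TIF-cluster under 350 nt; of other lists, those past 2-fold and partner paralogues of members. *RPT1a*, *RPN7*, *RPN8a*, *PAE1*, *RPN6* and *UMP1b* were named for ends, sequences or values after these were seen. Alternatives were another scaling, pseudocount, level filter, fold limit and minimum of read pairs, full-length TIF-clusters only, merging within 50 nt, other coding spans, wider zones, other shift limits, and a limit of 200 nt for short TIF-clusters. Functions were tested on simulated data. Software was Biopython 1.88, matplotlib 3.10.9, scipy 1.17.1 and numpy 2.4.6 with pandas 2.3.3, under Python 3.11.15.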

Additional observations from a re-analysis of the deposited data

Results flagged for a closer look

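The opposite strand of the members was not part of the comparisons. TIF-clusters on it that were listed in a mutant or cold list and not in the list it was compared with were found at 3 members. *RPT5b* had 5 read pairs in *hen2-2* and 0 in wild type at 22 °C, in 1 TIF-cluster that overlapped its span by 70 nt. *RPT3* had 4 read pairs in *spt16-1* and 0 in wild type at 22 °C, with an overlap of 2 nt. *RPN11* had 3 read pairs in *hen2-2* at 4 °C and 0 in *hen2-2* at 22 °C, with an overlap of 1 nt, and 3 to 10 in the other lists but *hen2-2* at 22 °C. No TIF-cluster of the opposite strand lay wholly inside a member, and these differences were not tested.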

How the results depend on the processing

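No paired analysis was possible because the lists pool the replicates, and for the same reason no replicate could be left out. Under some alternatives the number of members past 2-fold moved by over 1.5 times. In *hen2-2* against wild type at 22 °C it was 2, and 1 with median-of-ratios scaling, with a filter of 50 RPM or with full-length TIF-clusters only, and 5 at a limit of 1.5-fold. In *spt16-1* it was 1, and 2 with median-of-ratios scaling, a pseudocount of 1 or at least 5 read pairs, and 5 at 1.5-fold. In *ssrp1-2* it was 0, and 1 with median-of-ratios scaling (*RPT2a*), no filter or full-length TIF-clusters only, 2 with at least 5 read pairs and 4 at 1.5-fold. In wild type at 4 °C against 22 °C it was 1, and 3 with no filter or at 1.5-fold, 0 with a filter of 50 and 2 with at least 5 read pairs. In *hen2-2* at 4 °C against 22 °C it was 3, and 5 with a pseudocount of 1 or no filter, 6 with at least 5 read pairs and 13 at 1.5-fold. In *hen2-2* against wild type at 4 °C it was 5, and 3 with a filter of 50 and 2 with full-length TIF-clusters only. Median-of-ratios scaling moved log2 folds by -0.10 to 0.18. With full-length TIF-clusters only, *RPT5b* and *RPT2b* were past 2-fold in no comparison, which follows from the short TIF-clusters that this leaves out. Of the calls in *hen2-2* at 4 °C against 22 °C, *RPN2a* was lost with median-of-ratios scaling and with at least 5 read pairs. The calls of *RPT6b*, *RPN9a* and *RPN1b* were lost with a filter of 50 RPM, and those of *PAG1*, which has no full-length TIF-cluster, with full-length ones only. The cause of the other moves was not tested.

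Full-length TIF-clusters only gave summed levels of 4483 (*hen2-2*), 4110 (*spt16-1*) and 4253 (wild type) RPM at 22 °C and 3365 in *hen2-2* at 4 °C. Counting TIF-clusters that span any 1 model, chosen after seeing the data because of *PAG1*, gave 4576 in *hen2-2* at 22 °C and 3399 at 4 °C. Merging isoforms with both ends within 50 nt left 44, 45, 47 and 43 of 251, 252, 240 and 239 at 22 °C (*hen2-2*, *spt16-1*, *ssrp1-2*, wild type), and 48 of 154 and 47 of 215 at 4 °C (*hen2-2*, wild type). With a minimum of read pairs scaled to the list total, 158 remained in *spt16-1*, 152 in wild type at 22 °C and 143 in wild type at 4 °C. Counting all TIF-clusters moved the share of *RPT2a* to 70.5% in *hen2-2* at 4 °C, and that of *RPT5a* to 72.7% and 41.5% in *hen2-2* at 22 and 4 °C. With at least 5 read pairs, the shares became 0% for *RPT4a* and *RPN1a* and 100% for *RPT6a* and *RPN2a* in *hen2-2* at 4 °C, and 100% for *RPN1a* in wild type at 4 °C and for *RPN3a* in *spt16-1*. Leaving out the PAS of *RPT2a* found in wild type at 22 °C only was chosen after seeing the data. Joining ends within 50 nt left 41 zones of 3′ ends. Placing short TIF-clusters by the most used 5′ end put 10 in *hen2-2* and 2 in wild type at 22 °C and 12 in *hen2-2* at 4 °C at the start, against 1 each by the annotated start. With at least 5 read pairs, 0 short TIF-clusters were left in *ssrp1-2* and 1 in wild type at 22 °C, and 3 in wild type with a limit of 200 nt. No member passed a shift limit with a minimum of 50 read pairs or a limit of 100 nt either. Low counts limit the genes under 20 read pairs in a list, most of all in *hen2-2* at 4 °C.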

Other observations

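Of 15 genes for assembly, regulation and delivery of substrates to the proteasome, 10 passed the level filter. *CDC48A*, which encodes an ATPase that unfolds ubiquitylated proteins, had 676 RPM in *hen2-2*, 533 in *spt16-1*, 562 in *ssrp1-2* and 198 in wild type at 22 °C, and 117 in *hen2-2* and 565 in wild type at 4 °C. The lists of *hen2-2* at 4 °C and of wild type at 22 °C stood below the other 4, as they did for *PAA2*. These are levels of listed TIF-clusters, and the part of the TSS-seq filter in them was not tested. The core assembly chaperone gene *UMP1a* had 42 read pairs in *hen2-2* and 31 in wild type at 4 °C (2.28 times in RPM, 1.40 to 3.75), and its paralogue *UMP1b* had 24 and 74. The shuttle receptor gene *DSK2b* had 28 read pairs in *hen2-2*, 34 in *spt16-1* and 33 in *ssrp1-2*, against 12 in wild type at 22 °C. *DSK2a* had 3 read pairs in *hen2-2* at 4 °C, against 29 in wild type at 4 °C and 19 in *hen2-2* at 22 °C. *RAD23C*, another shuttle receptor gene, had 13 in *hen2-2* and 35 in wild type at 22 °C, and 7 and 34 at 4 °C. *NAC78*, which encodes a factor that activates proteasome genes, had 3 read pairs in *hen2-2* at 4 °C, against 19 in wild type at 4 °C and 24 in *hen2-2* at 22 °C. The 3 read pairs of *DSK2a* and of *NAC78* are the fewest that a listed TIF-cluster can hold, and that list is the smallest.

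Full-length *RPT6a* had 1.74 times the wild type in RPM in *hen2-2* at 22 °C (1.27 to 2.40) and 0.560 times at 4 °C (0.341 to 0.891). The difference between the temperatures was not tested.

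AATAAA, the main polyadenylation signal of animals, was in the last 50 nt before the most used 3′ end in 0 of 35 members and in 13.1% of 9360 genes. A lack of the letters in this window says nothing of other signals.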
